A study of Mus musculus with 161 samples.

Results

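The genes described here are 37 genes of DNA replication and S phase, a list put together by function, with earlier results of these data known. Of the 37 genes, 35 were present among the 8307 genes of the bulk RNA-seq matrix. Cdc6, which loads the replicative helicase, and Pole, the catalytic subunit of the leading-strand polymerase, were not among them, and both were measured in the single-cell data. A gene was kept in that matrix where it reached 10 FPKM (fragments per kilobase of transcript, scaled for depth) in at least 1 library, so that the 35 passed through their highest condition and their counts below are descriptions of the list. The 35 measured members fell into 10 licensing and helicase genes, 12 genes of polymerases, the sliding clamp and lagging-strand synthesis, 5 genes of nucleotide supply, 5 genes of chromatin and histone supply, and a group of 3 made up of both E-type cyclins and E2f1.

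The cells were bone marrow-derived macrophages (BMDMs) of C57BL/6J mice aged 6 to 10 weeks, grown out of marrow in medium with horse serum and macrophage colony-stimulating factor (M-CSF, 20 ng/mL), a growth factor that every group received throughout. From day 7, cells were kept without polarizing cytokines (M0), given lipopolysaccharide (LPS, 100 ng/mL) with interferon-γ (IFN-γ, 25 ng/mL) to give M1 cells, or given interleukin-4 (IL-4, 25 ng/mL) to give M2 cells. At 24 h part of the M1 and M2 cultures was washed and moved to medium without cytokines (M1→M0, M2→M0), to the opposite cytokines (M1→M2, M2→M1) or back to the same cytokines. Times of M0, M1 and M2 cells are hours since the first treatment, and times of switched cells are hours since the medium change, so that 72 h M1→M0 and 96 h M1 were of the same age. Each of the 48 bulk conditions held 3 libraries, except for 2 of 48 h M0, 4 of 96 h M0 and 4 of 4 h M2→M1, beside 9 chromatin accessibility (ATAC-seq) libraries and 7 single-cell libraries, 1 per condition. The labels call the bulk and ATAC-seq libraries biological replicates without saying whether animals or cultures were separate, so p-values measure the spread between these libraries.

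Replicates numbered 1 stood apart in the bulk data. The median of the members was lowest in replicate 1 in 35 of 48 conditions and in 7 of 7 conditions at 72 h or 96 h, with a mean deviation of -0.157 on the log2(FPKM + 1) scale. The standard deviation of that median was 0.037 in 12 h M1 and 0.55 in 72 h M1→M0. Each gene had 1 estimate of spread over all bulk conditions, so p-values may be too small where libraries varied more. The 11 measured markers of neutrophils, the other abundant marrow lineage, summed to 1040 to 2909 FPKM in 0 h M0, 23.5 to 363 FPKM in 24 h M0 and 64.8 to 80.8 FPKM in 24 h M1. The macrophage markers summed to 5059 to 16587 FPKM over all libraries and were lower in some conditions than others, as given beside the results. Fewer cells in S phase and less RNA per cell cannot be told apart in bulk samples, and the part of the marker changes in the results was not tested.

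Before a cell copies its DNA, the Mcm2–7 helicase is loaded at origins by Cdc6 and its partners and is then switched on with Cdc45 and the GINS complex. DNA polymerases, the Pcna clamp and the Rfc clamp loader carry out synthesis, ribonucleotide reductase and thymidylate enzymes supply nucleotides, and chromatin assembly factor 1 places new histones. Many of these genes are textbook targets of E2F factors, which are released when cyclin-dependent kinases inactivate the retinoblastoma protein. Cultured BMDMs divide in response to M-CSF, and activation by LPS or IFN-γ is known to halt their division.

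Promoter sequences were read from the RefSeq promoter table of mouse build GRCm38.p6, which held 31 of the 37 members. The E2F-type letters TTTCCCGC, TTTGGCGC, TTTCGCGC and TTTGCCGC were searched on both strands from 250 bases before to 50 bases after the start. They occurred in 11 of 31 members (35.5%) and in 704 of 27025 genes with a promoter (2.60%). By role they occurred in 5 of 8 licensing and helicase genes, 4 of 11 polymerase and clamp genes, 2 of 5 chromatin genes and 0 of 5 nucleotide supply genes. The letters CCAAT occurred in 17 of 31 members (54.8%) and in 41.1% of genes. A match of letters describes the sequence and does not show that a factor was bound. Rfc3 had 2 matches and was not called lower at 24 h M1, while Rrm2 and Tk1 had 0 and were called lower. Whether a match went with a fall was not tested. The 250 bases before the start are shown for 4 members with a match, from Mcm5 at chr8:75109259-75109508 (plus strand), Mcm6 at chr1:128359706-128359955 (minus strand), Hells at chr19:38930740-38930989 (plus strand) and Pola1 at chrX:93632156-93632405 (minus strand), and for Pcna at chr2:132253181-132253430 (minus strand), which had none and whose transcript was not called lower at 24 h M1. Capitals mark the E2F-type letters, and in Mcm5 and Mcm6 a joined run holds a pair of matches that share letters.
Mcm5: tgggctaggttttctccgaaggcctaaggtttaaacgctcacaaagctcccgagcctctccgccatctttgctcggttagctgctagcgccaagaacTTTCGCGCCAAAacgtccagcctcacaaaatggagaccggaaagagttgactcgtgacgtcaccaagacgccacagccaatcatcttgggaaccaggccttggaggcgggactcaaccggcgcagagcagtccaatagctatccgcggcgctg
Mcm6: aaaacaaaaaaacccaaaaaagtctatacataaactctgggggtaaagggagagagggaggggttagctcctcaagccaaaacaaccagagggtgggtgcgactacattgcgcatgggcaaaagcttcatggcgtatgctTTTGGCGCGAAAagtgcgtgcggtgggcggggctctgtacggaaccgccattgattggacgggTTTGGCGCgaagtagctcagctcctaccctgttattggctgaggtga
Hells: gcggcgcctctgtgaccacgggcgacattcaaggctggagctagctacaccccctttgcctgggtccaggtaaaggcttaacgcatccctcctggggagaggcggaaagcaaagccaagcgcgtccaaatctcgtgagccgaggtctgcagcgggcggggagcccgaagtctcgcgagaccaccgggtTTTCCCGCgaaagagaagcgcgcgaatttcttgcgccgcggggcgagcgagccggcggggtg
Pola1: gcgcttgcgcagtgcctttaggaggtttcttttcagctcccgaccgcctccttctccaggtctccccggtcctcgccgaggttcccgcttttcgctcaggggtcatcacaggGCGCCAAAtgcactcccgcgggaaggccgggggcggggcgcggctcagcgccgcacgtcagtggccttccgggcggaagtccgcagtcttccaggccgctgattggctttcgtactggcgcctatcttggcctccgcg
Pcna: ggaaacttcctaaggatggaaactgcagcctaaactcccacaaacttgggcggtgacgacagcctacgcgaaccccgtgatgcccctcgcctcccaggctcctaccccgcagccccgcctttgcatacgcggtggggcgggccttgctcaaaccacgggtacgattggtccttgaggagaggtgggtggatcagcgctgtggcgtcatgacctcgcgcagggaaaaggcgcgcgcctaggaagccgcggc
In the Mcm5 promoter, and in the pair of Mcm6 matches farther from the start, the matches shared letters, another Mcm6 match stood alone nearer the start, and the Pola1 match read on the opposite strand.

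At the start of the time course the members were expressed at a wide range of levels. Pcna was the highest of them in 0 h M0 cells, at 178 FPKM, followed by the helicase subunit Mcm6 at 47.6 FPKM. Rrm2, the cell cycle-regulated subunit of ribonucleotide reductase, stood at 31.0 FPKM and thymidine kinase Tk1 at 30.1 FPKM. The lowest was Pola1, the catalytic subunit of the primase-associated polymerase, at 6.00 FPKM.

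Under M1 cytokines most members had fallen by 4 h. At 1 h M1, limma called 0 of 35 members lower or higher than 0 h M0 at an adjusted p below 0.05, and 0 at an unadjusted p below 0.05, against 0.530% of all genes called lower and 4.32% called higher. At 2 h M1, 2 members were lower and 2 higher, against 18.7% and 24.0% of all genes. At 4 h M1, 26 of 35 members were lower and 1 was higher, against 27.6% and 35.3% of all genes, and the members' median difference was -1.06 on the log2(FPKM + 1) scale.

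Members called lower numbered 30 at 6 h (28.9% of all genes), 30 at 12 h (27.3%) and 30 at 24 h (25.2%), with medians of -1.85, -1.80 and -2.03. The median over all genes moved by 0.11 at 6 h and 0.10 at 24 h in the other direction. Of the 30 members that were lower at 24 h, 2 were lower from 2 h onwards, 23 from 4 h, 1 from 6 h, 3 from 12 h and 1 from 24 h.

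**Figure D1:**
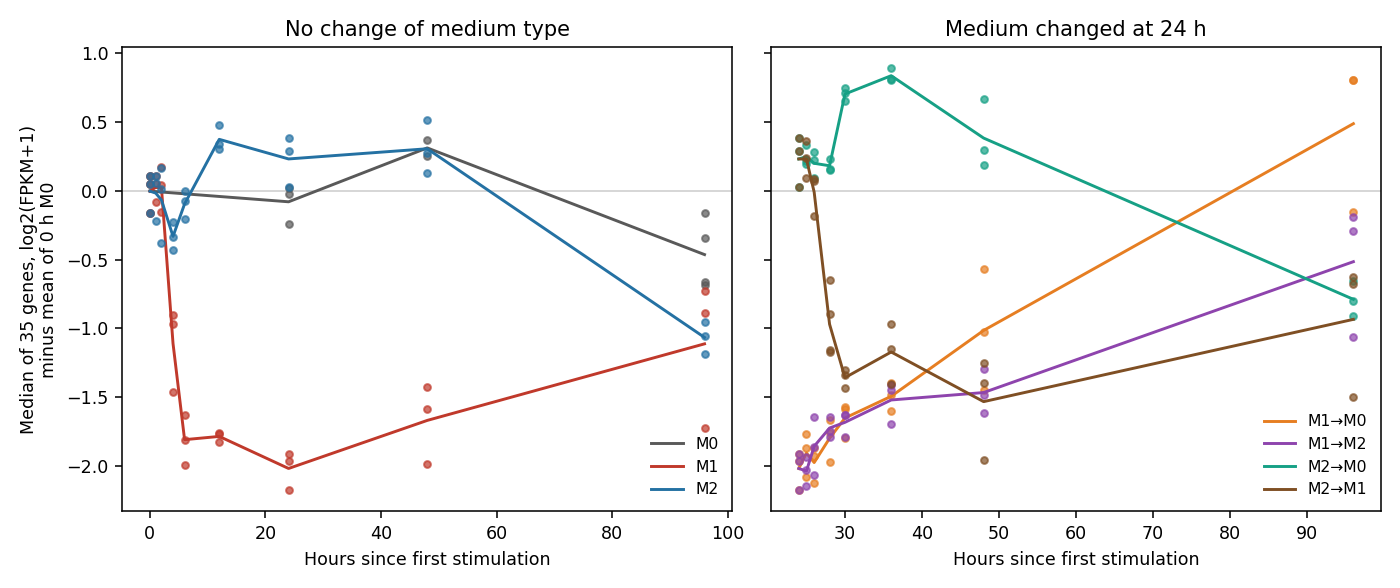
Median over the 35 members of log2(FPKM + 1) minus its mean in 0 h M0, plotted for each bulk library against hours in culture, with lines through the condition means and colours for the cytokine history, the left panel for cells kept in 1 medium and the right for cells switched at 24 h. The M1 libraries drop by 6 h and stay low, and 72 h M1→M0 libraries lie at -0.153, 0.806 and 0.806.

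The first members to fall were Pold1, the catalytic subunit of the lagging-strand polymerase, and Chaf1a, the large subunit of chromatin assembly factor 1. Pold1 was 11.6, 11.7 and 13.7 FPKM in 0 h M0 and 5.98, 7.58 and 8.57 FPKM in 2 h M1. All 3 treated libraries lay below all 3 starting ones, and the difference was -0.68 on the log2(FPKM + 1) scale (limma adjusted p = 0.0123). Chaf1a was 8.04, 8.73 and 9.97 FPKM in 0 h M0 and 4.70, 4.73 and 6.05 FPKM in 2 h M1, again with no overlap, a difference of -0.69 (limma adjusted p = 0.00667). Without replicate 3 the limma adjusted p was 0.125 for Pold1 and 0.0899 for Chaf1a.

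At the same hour, the other 2 called members were higher. Pola2, the accessory subunit of the primase-associated polymerase, was 8.94, 9.77 and 12.1 FPKM in 0 h M0 and 15.1, 14.8 and 19.8 FPKM in 2 h M1, so that no library overlapped. Its difference was 0.64 at 2 h (limma adjusted p = 0.000455) and 0.56 at 4 h (limma adjusted p = 0.00145), the only member called higher at 4 h. The helicase subunit Mcm4 rose by 0.47 at 2 h (limma adjusted p = 0.0168), a call that quantile normalization took to a limma adjusted p of 0.135. By 12 h Pola2 was among the fallen members, and at 24 h M1 it stood at 5.92, 7.93 and 6.90 FPKM.

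The nucleotide supply genes and the helicase fell furthest. Rrm2 was 30.4, 32.2 and 30.5 FPKM in 0 h M0, 7.42, 10.4 and 9.84 FPKM in 4 h M1, and 0.246, 1.03 and 0.877 FPKM in 24 h M1. Every M1 library lay below every 0 h library at both times, and at 24 h the difference was -4.25 ± 0.33 on the log2(FPKM + 1) scale (SE, limma adjusted p = 1.99e-21), the largest of the 35 members. Since 1 FPKM was added before taking logs, these differences understate the change of genes near 0. Tk1, which salvages thymidine, fell from 20.8, 32.7 and 37 FPKM to 1.52, 0.922 and 0.921 FPKM, a difference of -3.85 ± 0.35 (SE, limma adjusted p = 6.73e-18).

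Uhrf1, which carries maintenance methylation to newly copied DNA, was 21.1, 17.7 and 19.3 FPKM in 0 h M0 and 0.574, 0.691 and 0.712 FPKM in 24 h M1, a difference of -3.62 ± 0.36 (SE, limma adjusted p = 1.25e-15). Mcm7 followed at -3.58 ± 0.28 (SE, limma adjusted p = 8.71e-22), from 25.8, 32.0 and 32.1 FPKM to 1.28, 1.77 and 1.71 FPKM. Neither gene had overlapping libraries. All 10 licensing and helicase genes were lower at 24 h, with a median of -2.25, as were all 5 nucleotide supply genes with a median of -2.78 and all 5 chromatin genes with a median of -1.87. Of the 12 polymerase and clamp genes, 8 were lower, with a median of -1.10, and of the cyclin E and E2f1 group 2 of 3 were lower.

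Some members fell late. Tyms, thymidylate synthase, was 15.7, 20.1 and 21.1 FPKM in 0 h M0 and 11.5, 14 and 15.4 FPKM in 6 h M1, when it missed the threshold (limma adjusted p = 0.094). At 12 h it was 4.09, 4.82 and 3.90 FPKM, below all of the earlier libraries, a difference of -1.91 (limma adjusted p = 1.24e-11). The GINS subunit Gins2 was 13.2, 14.7 and 15.0 FPKM at 12 h M1 (difference -0.47, limma adjusted p = 0.0572) and 11.8, 10.9 and 11 FPKM at 24 h M1 (difference -0.79, limma adjusted p = 0.00145), from 14.5, 23.0 and 24.7 FPKM. Mcm10, a helicase activator, also first passed the test at 12 h.

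**Figure D2:**
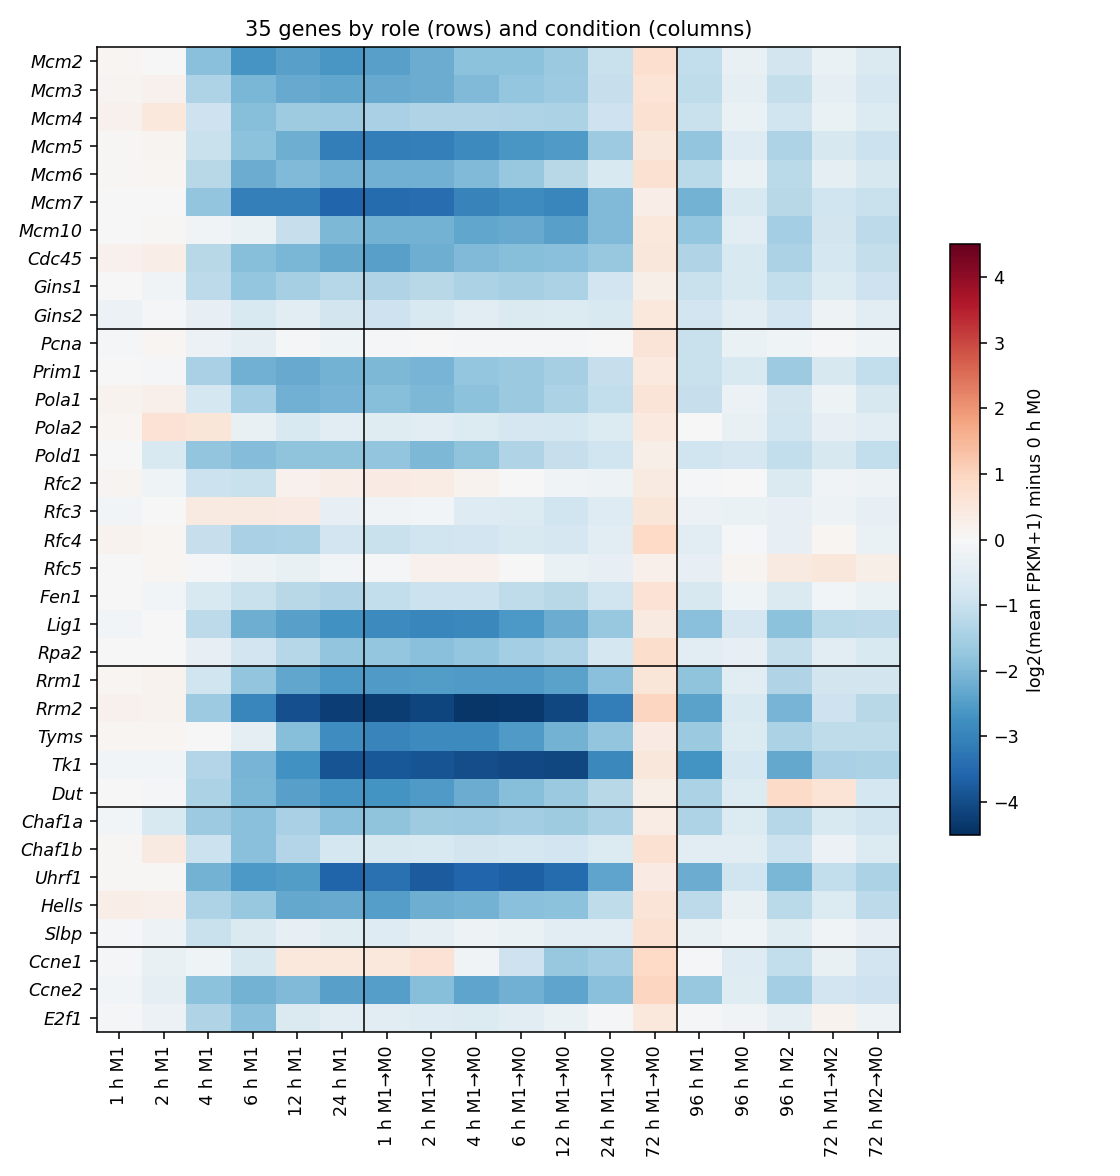
Log2 of the condition mean FPKM plus 1 for each of the 35 members (rows, grouped by role) minus that of 0 h M0, for M1, M1→M0 and late conditions (columns), on a colour scale in log2 units. The M1 columns are low from 4 h in most rows, and the rows of Pcna, Rfc2, Rfc3, Rfc5 and Ccne1 differ from the rest.

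The 5 members not called at 24 h M1 were Pcna, 3 subunits of the clamp loader (Rfc2, Rfc3 and Rfc5) and cyclin E1 (Ccne1). Pcna was 169, 175 and 191 FPKM in 0 h M0 and 141, 185 and 144 FPKM in 24 h M1, with overlapping libraries and a difference of -0.19 ± 0.19 (SE, limma adjusted p = 0.399). Its level later dropped to 53.3, 114 and 96.2 FPKM in 96 h M1, below every 0 h library, a difference of -1.08 (limma adjusted p = 1.24e-06). The fourth measured Rfc gene, Rfc4, was lower at 24 h (-0.82, limma adjusted p = 0.000386).

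Rfc2 and Ccne1 were called lower early and no longer at 24 h, while the cytokines were still present. Rfc2 was 18.3, 23.0 and 22.8 FPKM in 0 h M0, 7.95, 10.9 and 12.3 FPKM in 4 h M1 and 20.2, 31.5 and 27.8 FPKM in 24 h M1. The 4 h libraries lay below both other sets, which overlapped, and the differences from 0 h were -0.99 at 4 h (limma adjusted p = 2.25e-06) and 0.28 at 24 h (limma adjusted p = 0.189). Ccne1, which drives entry into S phase with Cdk2, was 7.07, 8.02 and 9.10 FPKM in 0 h M0, 3.70, 3.90 and 5.84 FPKM in 6 h M1 and 10.7, 12.4 and 11.5 FPKM in 24 h M1. The difference from 0 h was -0.74 at 6 h (limma adjusted p = 0.0219, and 0.145 without replicate 2). Its 24 h M1 libraries lay above its 24 h M0 libraries (4.42, 7.87 and 8.35 FPKM), a difference of 0.71 (limma adjusted p = 0.0317), which missed the threshold without replicate 2 (adjusted p = 0.108) or without replicate 3 (adjusted p = 0.0935).

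E2f1, an E2F activator, was lowest at 6 h. It was 14.2, 17.1 and 18.6 FPKM in 0 h M0, 2.67, 4.01 and 4.57 FPKM in 6 h M1 and 10.2, 12.4 and 11.9 FPKM in 24 h M1. Every M1 library was below every 0 h library, and the difference was -1.91 at 6 h (limma adjusted p = 4.78e-20) and -0.49 at 24 h (limma adjusted p = 0.00532, and 0.118 without replicate 3). Cyclin E2 (Ccne2) went from 13.0, 6.48 and 7.67 FPKM to 0.690, 1.04 and 0.755 FPKM at 24 h M1, a difference of -2.41 (limma adjusted p = 1.36e-11). Slbp, which binds the stem-loop of histone messages, was lowest at 4 h (11.9, 10.6 and 11.5 FPKM), and its 24 h libraries (15.5, 17.4 and 14 FPKM) lay above those and below its 0 h libraries (25.6, 23.0 and 21.7 FPKM).

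**Figure D3:**
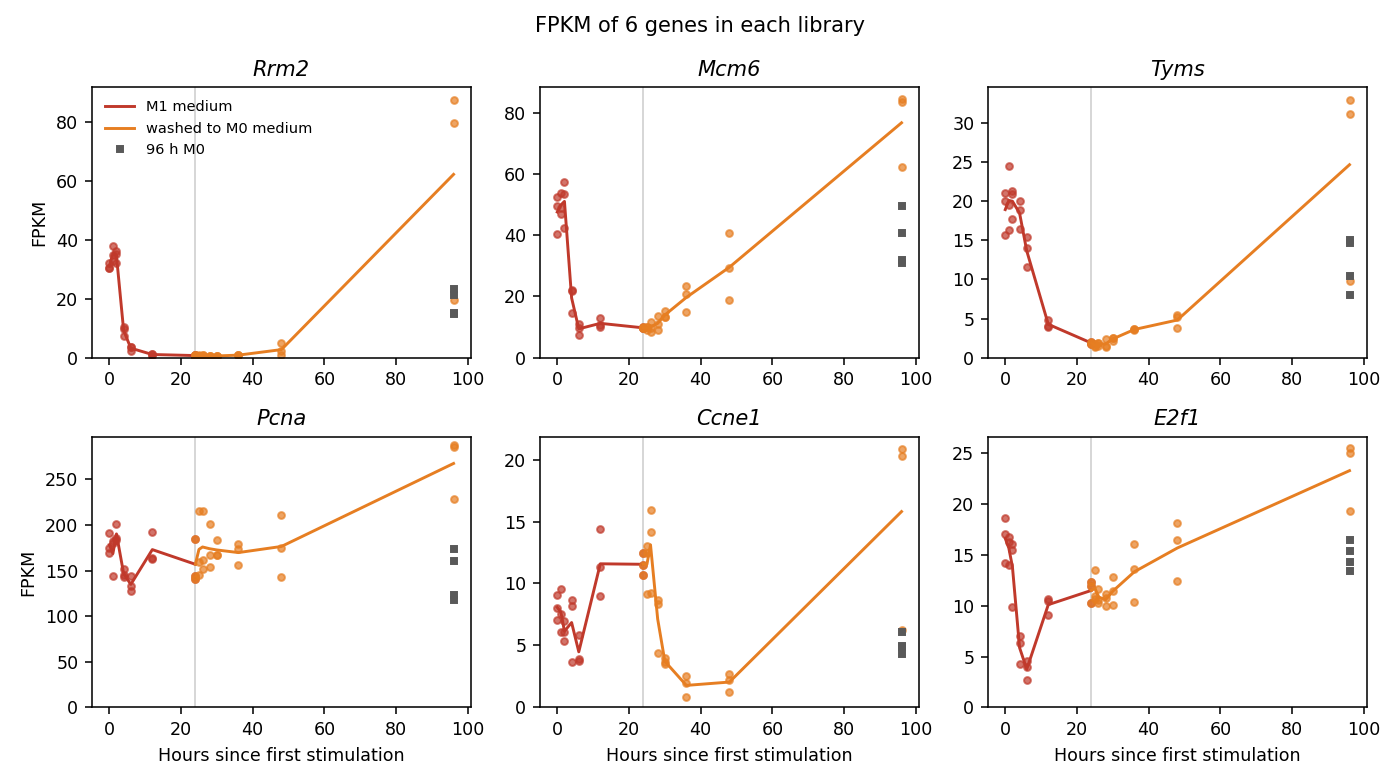
FPKM (linear axis) of 6 members with different courses against hours since the first treatment, each point 1 bulk library, red for M1 and orange for M1→M0 with lines through the condition means, and grey squares for 96 h M0. Rrm2 and Mcm6 fall and return, Tyms falls late, E2f1 dips at 6 h, Pcna is not called lower at 24 h M1, and Ccne1 drops after washout of M1 cytokines.

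Most members were still lower at 48 h and 96 h of M1 cytokines, with medians nearer 0 at 96 h, a change between M1 times that was not tested. Against 0 h M0, 30 members were lower at 48 h M1 (24.6% of all genes) and 29 at 96 h M1 (23.6%), with medians of -1.56 and -1.12, and at 48 h the median over all genes was 0.12. Against M0 cells of the same age, 30 members were lower and 1, Ccne1, was higher at 24 h (25.2% and 35.4% of all genes), 32 were lower at 48 h (23.9%) and 22 at 96 h (22.3%), with medians of -1.82, -1.93 and -0.76. Rrm2 was 0.562, 9.09 and 5.56 FPKM in 96 h M1 against 15.0, 15.3, 21.4 and 23.2 FPKM in 96 h M0, with no overlap and a difference of -2.04 (limma adjusted p = 1.85e-08). The first replicate of 96 h M1 was the lowest of the 3 in Rrm2, in Mcm5 (1.79, 11.6 and 7.12 FPKM) and in the members' median relative to 0 h M0 (-1.72, -0.73 and -0.89).

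In the first day of IL-4, 0 to 5 members were called lower and 0 to 9 higher at each time, shares that were near or below those of all genes at most times. At 4 h M2, 5 members were lower than in 0 h M0 (17.8% of all genes), Prim1, Rfc2, Chaf1a, Chaf1b and E2f1, with 13 lower at an unadjusted p below 0.05, and Rfc5 was higher (22.5%). E2f1 was 14.2, 17.1 and 18.6 FPKM in 0 h M0 and 9.50, 11 and 11.5 FPKM in 4 h M2, with no overlap and a difference of -0.59 (limma adjusted p = 0.00149). At 6 h M2, Pcna and Chaf1b were lower (19.0%) and Rfc5 and Hells higher (25.6%), and at 12 h M2 9 members were higher (20.8%) and 0 lower, also at an unadjusted p below 0.05 in limma. At 24 h, limma called 0 members lower in M2 than in M0 cells of the same age, also at an unadjusted p below 0.05, against 15.1% of all genes, and 5 higher (8 at an unadjusted p below 0.05), against 18.5%: Mcm2, Mcm3, Mcm4, Rfc5 and Dut. At 48 h, 2 were higher, Rfc5 and Dut (12.7%). The macrophage markers summed to 6990 to 7201 FPKM in 24 h M2 and 11296 to 13573 FPKM in 24 h M0, without overlap, and their part in these differences was not tested.

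Dut, the dUTP pyrophosphatase that keeps uracil out of DNA, was the member most raised by IL-4. It was 14.8, 13.5 and 19.4 FPKM in 24 h M0 and 35.9, 32.0 and 38.7 FPKM in 24 h M2, a difference of 1.12 (limma adjusted p = 1.87e-07). No M2 library overlapped an M0 library, and the same held at 48 h, with 18.6 and 22.0 FPKM in M0 and 49.8, 53.8 and 51.6 FPKM in M2 (difference 1.31, limma adjusted p = 6.17e-08). At 96 h Dut was 10.9, 11.6, 12.4 and 16 FPKM in M0 and 34.8, 40.8 and 36.6 FPKM in M2, a difference of 1.5 (limma adjusted p = 6.89e-13).

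Rfc5 also rose, from 13.0, 16.5 and 15.4 FPKM in 24 h M0 to 22.0, 23.9 and 20.9 FPKM in 24 h M2, a difference of 0.55 (limma adjusted p = 2.55e-06). By 96 h of IL-4 most other members had moved the other way, and 22 were lower than in 96 h M0 (14.9% of all genes) and 2, Dut and Rfc5, were higher (20.4%), with a median of -0.61. Rrm2 was 5.10, 6.81 and 7.48 FPKM in 96 h M2, below all 4 libraries of 96 h M0, a difference of -1.39 (limma adjusted p = 0.00016). The count of 22 fell to 7 without replicate 3, and the Rfc5 difference of 0.27 (limma adjusted p = 0.0134) missed the threshold under quantile normalization (adjusted p = 0.0658).

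In M0 cells few members were called against 0 h, and more were called between 48 h and 96 h. At 24 h M0, limma called 0 members lower or higher than at 0 h (1.01% and 0.626% of all genes), with 0 lower and 1 higher at an unadjusted p below 0.05. At 48 h M0, 3 were higher, Rfc4, Rfc5 and Rrm1 (4.32% of all genes), and at 96 h M0, 9 were lower (6.90%), with a median of -0.49. Pold1 was the most lowered of the 9, by -0.81 (limma adjusted p = 0.00642). Against 48 h M0, a comparison added after the data were seen, 25 of 35 members were lower at 96 h (4.08% of all genes), with a median of -0.80. Tk1 was 53.9 and 54.3 FPKM in 48 h M0 and 10.5, 10.2, 21.3 and 26.2 FPKM in 96 h M0, without overlap, a difference of -1.72 (limma adjusted p = 0.000536). The macrophage markers summed to 7776 to 8665 FPKM in 48 h M0, below the range in 96 h M0 of 10210 to 12811 FPKM, and their part in this was not tested. The count of 25 was 9 without replicate 3 and 0 without replicate 2, where 1 library of 48 h M0 was left and was assumed to vary like the other groups. The count of 9 against 0 h also depended on the libraries: it was 22 without replicate 1, 0 without replicate 2, 0 without replicate 3, 12 without replicate 4, and 20 with a replicate block. The neutrophil marker sum was 9.16 to 19.4 FPKM in 96 h M0, with 11 of 11 markers lower than at 0 h.

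After M1 cytokines were washed out, the members returned over hours to days, and most of the return came after 12 h. Up to 12 h, the shares of members called higher were near or below those of all genes. Limma called 0 members higher than 24 h M1 at 1 h M1→M0 (0.0482% of all genes), also at an unadjusted p below 0.05, 1 at 2 h (2.37%) and 2 at 4 h (9.21%). At 6 h, 6 members were higher (13.8% of all genes): Mcm2, Mcm3, Mcm7, Prim1, Pola1 and Dut. At 12 h, 8 were higher and 2 lower (19.9% and 20.5%), at 24 h 19 were higher and 3 lower (21.1% and 23.4%), and at 72 h 33 were higher (25.0%), with medians of 0.65 at 24 h and 2.45 at 72 h. Fewer passed at 24 h M1→M0 against 48 h M1, cells of the same age kept in the cytokines. There 11 members were higher and 1 lower (10.4% and 13.4% of all genes), with a median of 0.47.

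The early counts rested on few libraries. Without replicate 2, 1 member was higher at 6 h and 10 at 24 h, and without replicate 3, 1 was higher at 6 h and 4 at 12 h. Of the 30 members that had fallen at 24 h M1, 6 were higher at 6 h after washout, 8 at 12 h, 19 at 24 h and 30 at 72 h. Of these 30, counted from the time after which they stayed higher, 1 returned from 4 h, 4 from 6 h, 3 from 12 h, 11 from 24 h and 11 from 72 h. Pcna, Rfc3 and Rfc5, which had not been called lower, were higher than in 24 h M1 at 72 h too. The first was the helicase subunit Mcm2, at 0.915, 2.31 and 1.98 FPKM in 24 h M1, 2.72, 4.34 and 4.00 FPKM at 4 h M1→M0 and 3.01, 12.0 and 7.31 FPKM at 24 h M1→M0. Its 4 h libraries all lay above its 24 h M1 libraries, a difference of 0.80 (limma adjusted p = 0.0257, and 0.254 without replicate 3).

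Dut had the smallest adjusted p of the members called higher at 6 h. It was 1.78, 2.60 and 2.53 FPKM in 24 h M1 and 4.63, 3.88 and 5.22 FPKM at 6 h M1→M0, with no overlap, a difference of 0.76 (limma adjusted p = 0.000385). Prim1, the primase catalytic subunit, and Pola1, of the same complex, were higher by 0.48 and 0.43 at 6 h (limma adjusted p = 0.0346 and 0.0349). By role, 7 of 10 licensing and helicase genes and 4 of 5 nucleotide supply genes were higher at 24 h after washout, against 5 of 12 polymerase and clamp genes and 2 of 5 chromatin genes.

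Rrm2 and Tk1, which had fallen furthest, were still near 0 in some libraries at 24 h. Rrm2 was 1.01, 4.90 and 2.32 FPKM at 24 h M1→M0 and 19.5, 79.6 and 87.3 FPKM at 72 h M1→M0. The 24 h value was above 24 h M1 (1.02, limma adjusted p = 0.00844) although all 3 libraries stayed below the starting 30.4 FPKM. Tk1 was 0.886, 6.23 and 2.52 FPKM at 24 h M1→M0, which missed the threshold against 24 h M1 (adjusted p = 0.0559) and lay far below the 53.9 and 54.3 FPKM of 48 h M0, cells of the same age (difference -3.92, limma adjusted p = 4.02e-15). In that comparison 33 of 35 members were still lower (15.7% of all genes), with a median of -1.30, the exceptions being Pcna and E2f1.

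Ccne1 went the opposite way after washout. It was 10.7, 12.4 and 11.5 FPKM in 24 h M1 and 0.859, 2.52 and 1.93 FPKM at 12 h M1→M0, a difference of -2.23 ± 0.30 (SE, limma adjusted p = 4.14e-10). The groups did not overlap, and the fall was already called at 6 h (-1.41, limma adjusted p = 6.34e-05) and still at 24 h (-2.07, limma adjusted p = 3.21e-09). At 72 h M1→M0 Ccne1 was 6.25, 20.3 and 20.8 FPKM. Rfc3 was lower at 12 h (-0.54, limma adjusted p = 0.0199) and Rfc2 at 24 h (-0.53, limma adjusted p = 0.0145), both calls missing the threshold without replicate 2 (adjusted p = 0.119 and 0.12). Rfc5 was also lower at 24 h (-0.23, limma adjusted p = 0.0423, and 0.065 under quantile normalization).

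At 72 h after washout the members stood above cells that had never seen the cytokines. Against 96 h M0, 33 of 35 members were higher and 0 lower, also at an unadjusted p below 0.05, against 10.7% and 7.19% of all genes, with a median of 0.95. Mcm6 was 62.2, 83.4 and 84.4 FPKM in 72 h M1→M0 and 31.9, 31.0, 40.8 and 49.4 FPKM in 96 h M0, with no overlap and a difference of 1.00 ± 0.18 (SE, limma adjusted p = 1.43e-05). Rrm2 differed by 1.44 ± 0.31 (SE, limma adjusted p = 0.00022), but its first replicate (19.5 FPKM) lay within the 96 h M0 range of 15.0 to 23.2 FPKM. In 23 of 35 members every 72 h M1→M0 library was above every 96 h M0 library, against 19.5% of all genes. Rfc2 (0.42, limma adjusted p = 0.0827) and Rfc5 (0.08, limma adjusted p = 0.648) did not pass the test.

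The median was lower in replicate 1, where the members' median relative to 0 h M0 was -0.153, against 0.806 in both other replicates of 72 h M1→M0. The 4 libraries of 96 h M0 had medians of -0.69, -0.66, -0.34 and -0.16, so that all 3 washed-out libraries were at or above the highest of them. The count of 33 was 34 without replicate 1, 14 without replicate 2 and 14 without replicate 3. Rrm2 missed the threshold without replicate 2 (limma adjusted p = 0.11), and Mcm6, Pcna and Ccne2 passed in every alternative.

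The same libraries were higher against the other late cultures too. Compared with 96 h M1, all 35 members were higher (19.4% of all genes), with a median of 1.66, and Pcna rose from 53.3, 114 and 96.2 FPKM to 228, 288 and 286 FPKM (1.66, limma adjusted p = 4.4e-12). Compared with 72 h M2→M0, the other washed-out cells, 34 were higher (12.2%), with a median of 1.29. Compared with 0 h M0, 14 were higher (14.0%) and 0 lower, the largest difference being that of Ccne2 (0.92, limma adjusted p = 0.0172). These comparisons share the 72 h M1→M0 libraries and are not independent of each other. The 4 measured fibroblast markers summed to 0.883 to 3.33 FPKM in 72 h M1→M0, 40.0 to 318 FPKM in 96 h M0 and 45.0 to 282 FPKM in 72 h M2→M0, and all 4 were lower in 72 h M1→M0 in both comparisons. Of 5 osteoclast markers 4 were lower in both (medians -1.92 and -2.73), as were 2 of 3 megakaryocyte markers (median -1.59 in both). The macrophage markers summed to 6686 to 9268 FPKM in 72 h M1→M0, below the 10210 to 12811 FPKM of 96 h M0 and the 11388 to 13640 FPKM of 72 h M2→M0, with 3 of 9 and 2 of 9 called lower and 1 higher in each. The part of these changes in the result was not tested.

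Replacing M1 cytokines with IL-4 gave lower levels of most members at 72 h than plain medium. At 24 h, 5 members were lower in M1→M2 than in M1→M0 (3.96% of all genes): Mcm4, Mcm6, Mcm7, Lig1 and Rpa2. The 2 higher members (6.27%) were Dut, at 28.9, 29.7 and 27.8 FPKM against 7.16, 8.68 and 7.70 FPKM (1.75, limma adjusted p = 5.74e-14), and Rfc5 (0.39, limma adjusted p = 0.00222, and 0.11 without replicate 3). The Dut libraries of the 2 groups were far apart, whereas those of Rfc5 were 14.7, 12.5 and 14.1 FPKM against 10.1, 9.97 and 10.7 FPKM.

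At 72 h, 32 members were lower in M1→M2 (8.45%) and 1, Rfc5, was higher (8.46%), with a median of -1.05. The ligase Lig1, which seals lagging-strand fragments, differed by -1.64 (limma adjusted p = 2.86e-06) and Ccne2 by -1.87 (limma adjusted p = 3.99e-07). Rrm2 was 4.10, 24.8 and 18.2 FPKM in 72 h M1→M2 against 19.5, 79.6 and 87.3 FPKM in 72 h M1→M0, where 1 library of each overlapped (difference -1.95, limma adjusted p = 1.77e-06). Within each replicate number the M1→M2 library was the lower. The count of 32 was 19 without replicate 3 and 5 when only the libraries of these 2 conditions were fitted. The Rfc5 call (0.28, limma adjusted p = 0.0372) was lost under quantile normalization (adjusted p = 0.0607).

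After IL-4 was washed out some members rose within hours, and by 72 h most were lower than in 24 h M2. At 6 h M2→M0, 8 members were higher than in 24 h M2 (5.42% of all genes), and at 12 h 12 were higher (5.36%). Hells, a chromatin remodeler of replicating cells, was 12.4, 5.77 and 7.83 FPKM in 24 h M2 and 24.3, 20.6 and 16.1 FPKM at 6 h M2→M0, with no overlap (1.18, limma adjusted p = 0.00267, and 0.156 without replicate 2). At 24 h, 1 member was higher (7.30%), Slbp (0.41, limma adjusted p = 0.014), and 1 lower (8.87%), Dut (-0.57, limma adjusted p = 0.016). At 72 h M2→M0, 32 members were lower than in 24 h M2 (18.4%), with a median of -1.06. Rrm2 was then 11.5, 11.7 and 13.9 FPKM, against 41.0, 28.3 and 35.4 FPKM in 24 h M2. Cultures of the same age that were not switched lay below 0 h M0 too. The members' median relative to 0 h M0 averaged -0.79 in 72 h M2→M0, -1.07 in 96 h M2 and -0.46 in 96 h M0. The 72 h M2→M0 cells were not tested against either of these, so the part of washout in the drop was not tested.

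When IL-4-treated cells were given M1 cytokines, most members were again lower from 4 h. Against 24 h M2, 5 members were lower at 2 h M2→M1 (14.8% of all genes), 31 at 4 h (29.4%) and 30 at 24 h (31.2%), with medians of -1.12 at 4 h and -1.81 at 24 h. The 5 early ones were Prim1, Pold1, Chaf1a, Slbp and Ccne2. Rrm2 was 8.86, 9.34, 14.6 and 9.93 FPKM at 4 h M2→M1 and 0.577, 0.799 and 0.802 FPKM at 24 h, each set below all 24 h M2 libraries.

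At 24 h M2→M1, 2 members were higher than in 24 h M2 (38.2% of all genes). Ccne1 was 8.05, 8.60 and 11.7 FPKM in 24 h M2 and 11.5, 41.4 and 38.4 FPKM in 24 h M2→M1, a difference of 1.41 (limma adjusted p = 1.55e-05). Rfc3 was 13.8, 12.1 and 13.7 FPKM and then 9.17, 26.1 and 28.5 FPKM, a difference of 0.51 (limma adjusted p = 0.0178). In both genes replicate 1 stood below the other M2→M1 libraries and overlapped or lay below 24 h M2, and the Rfc3 call was lost without replicate 2 (limma adjusted p = 0.482), without replicate 3 (adjusted p = 0.442) and under quantile normalization (adjusted p = 0.0919).

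The fall at 24 h itself differed between the M2→M1 and the M1 course in 2 of 35 members, against 22.0% of all genes in either direction. For Rfc5 the fall was -0.76 from 24 h M2 and -0.14 from 0 h M0, a difference of -0.62 (limma adjusted p = 0.000368). Its libraries ended at similar levels, 12.1, 12.8 and 13.3 FPKM in 24 h M2→M1 and 12.4, 11.4 and 12.9 FPKM in 24 h M1, from different starting levels. For Rfc3 the difference was 0.89 (limma adjusted p = 0.0132), which was lost without replicate 2 (adjusted p = 0.338) or without replicate 3 (adjusted p = 0.372). The count of 2 was 5 without replicate 1 and 1 without replicate 2 or without replicate 3.

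Other genes of the same pathway were read from lists chosen by function. Of 34 other measured replication genes, 21 were lower and 4 higher at 24 h M1 than at 0 h M0, with a median of -0.68, beside 25.2% and 35.9% of all genes. The checkpoint adaptor Clspn fell by 2.66 on the log2(FPKM + 1) scale (limma adjusted p = 6.99e-14), along with Asf1b, Pole2 and Tipin, and the 4 higher genes were the origin recognition subunits Orc4 (1.02) and Orc5 (0.65), Mcmbp (0.78) and the histone chaperone Asf1a (1.49). Of 20 other nucleotide supply genes, 14 were lower and 2 higher, with a median of -0.99. The 2 were Samhd1, which degrades deoxynucleotides, at a mean of 156 FPKM in 0 h M0 and 1423 FPKM in 24 h M1 (3.20, limma adjusted p = 1.12e-20), and deoxycytidine kinase Dck (2.06, limma adjusted p = 9.33e-12).

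Of 24 genes that control the step from G1 to S, 9 were lower and 4 higher, with a median of 0.08. Myc, a driver of growth and cell cycle entry, had a difference of -3.25 (limma adjusted p = 7.48e-18), and the kinase inhibitor Cdkn1a (p21) rose from a mean of 61.3 FPKM to 207 FPKM (1.77, limma adjusted p = 1.6e-12). The other 3 higher genes were the cyclin Ccnd2 (1.67), the pocket protein Rbl1 (0.99) and the Myc partner Max (1.02). Of 20 mitosis genes, 19 were lower, with a median of -3.19, led by Ube2c, Top2a, Birc5 and Ccnb2. At 24 h M1→M0, when 19 of 35 members were higher than in 24 h M1, 1 of the 20 mitosis genes was higher and 1 lower (21.1% and 23.4% of all genes), and at 72 h 19 of 20 were higher (25.0%). Against 96 h M0, 5 of 20 mitosis genes and 20 of 34 other replication genes were higher at 72 h M1→M0 (10.7%).

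Over the 48 condition means, the genes outside the list that tracked the members most closely were Clspn (Pearson r = 0.983 with the mean of the standardized members), Tcf19 (0.982), Dtl (0.982), Mybl2 (0.981) and Fignl1 (0.979), followed by Rad51ap1, Smc2, Asf1b, Cenpn and Ncapg. Among the members themselves, the least like the mean of the others were Rfc2 (r = 0.215), Ccne1 (0.266), Pcna (0.479), Rfc3 (0.482) and E2f1 (0.577). These correlations describe conditions that share libraries and cytokines and carry no test.

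The single-cell libraries showed the members in individual cells, at 1 library per condition and so without a test across replicates. Counts are unique molecular identifiers (UMIs), given per 10000 UMIs of a library with exact Poisson 95% intervals that cover counting error only. The 37 members made up 19.9 per 10000 UMIs in 0 h M0 (interval 19.6 to 20.2; 5985 cells) and 28.4 in 6 h M0 (28 to 28.8; 2446 cells). They made up 3.45 in 6 h M1 (3.33 to 3.58; 3248 cells) and 3.42 in 24 h M1 (3.29 to 3.56; 2842 cells). In M2 cells the values were 20.6 at 6 h (20.3 to 20.9; 2709 cells) and 13.5 at 24 h (13.2 to 13.7; 2924 cells), and in 24 h M0 9.62 (9.37 to 9.88; 2727 cells). Both M1 libraries were therefore the lowest, and 24 h M0 and 24 h M2 lay below 6 h M0 and 6 h M2. Pcna alone gave 858 of 3024 member UMIs in 6 h M1 and 1057 of 2434 in 24 h M1. In 0 h M0 it gave 2439 of 15075.

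Between 6 h M1 and 6 h M0 all 37 members were lower, with intervals apart for all 37. Between 24 h M1 and 24 h M0, 35 were lower, 33 of them with intervals apart, and 2 were higher, Pcna and Ccne1. Against 0 h M0, all 37 were lower in 24 h M1, with intervals apart for all 37. Pcna was then 3.22 per 10000 UMIs in 0 h M0 and 1.49 in 24 h M1. In the bulk libraries Pcna, Rfc2, Rfc3, Rfc5 and Ccne1 were not called lower between those conditions. The shares over all single-cell genes were not computed, so these counts describe the members without a comparison to other genes. Pcna was 1.49 per 10000 UMIs in 24 h M1 (1.40 to 1.58) and 1.17 in 24 h M0 (1.08 to 1.26), so that the intervals were apart, while for Ccne1 0.125 (0.1 to 0.154) and 0.0873 (0.0648 to 0.115) overlapped. Rrm2 and Tk1 had 2 UMIs each in all cells of 24 h M1, against 152 and 323 in 24 h M0. Pola1 had 0, and a limit of 3 counts then allows up to 0.00422 per 10000 UMIs.

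Both genes not in the bulk matrix had fewer UMIs in M1 cells too. In M0 cells Cdc6 had 66 UMIs at 0 h, 87 at 6 h and 41 at 24 h, against 5 at 6 h and 15 at 24 h of M1. Pole had 42, 56 and 27 in M0 cells, against 7 and 1 in M1. The mitosis genes stood at 1.43 per 10000 UMIs in 6 h M1 and 0.483 in 24 h M1, against 14.1 in 6 h M0 and 13.5 in 24 h M0. From 6 h to 24 h of M0 the members went from 28.4 to 9.62 per 10000 UMIs and the mitosis genes from 14.1 to 13.5. The bulk data held no 6 h M0. From 0 h to 24 h of M0 the single-cell members went from 19.9 to 9.62 per 10000 UMIs and the mitosis genes from 8.30 to 13.5. The bulk libraries had 0 members called lower at 24 h M0 than at 0 h M0.

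To compare cells at equal depth, each cell was thinned to 500 UMIs, which left out 400 shallower cells of 0 h M0 and 0 elsewhere. Cells with 3 or more member UMIs then made up 11.8% of 0 h M0, 19.6% of 6 h M0, 11.9% of 6 h M2, 2.71% of 24 h M0 and 5.23% of 24 h M2. They made up 0.185% of 6 h M1 (exact Clopper-Pearson 95% interval 0.0678% to 0.402%) and 0.106% of 24 h M1 (0.0218% to 0.308%). Without thinning the shares were 32.9%, 73.0%, 66.4%, 20.1% and 38.6% in the first 5 libraries and 9.27% and 8.66% in the M1 libraries. Median depths were 1025 UMIs in 0 h M0 and 1751 to 2529 elsewhere, and any 2 libraries shared 6 to 25 cell barcodes. No cell type that lacks these genes was at hand, so the share due to free RNA was not measured.

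**Figure D4:**
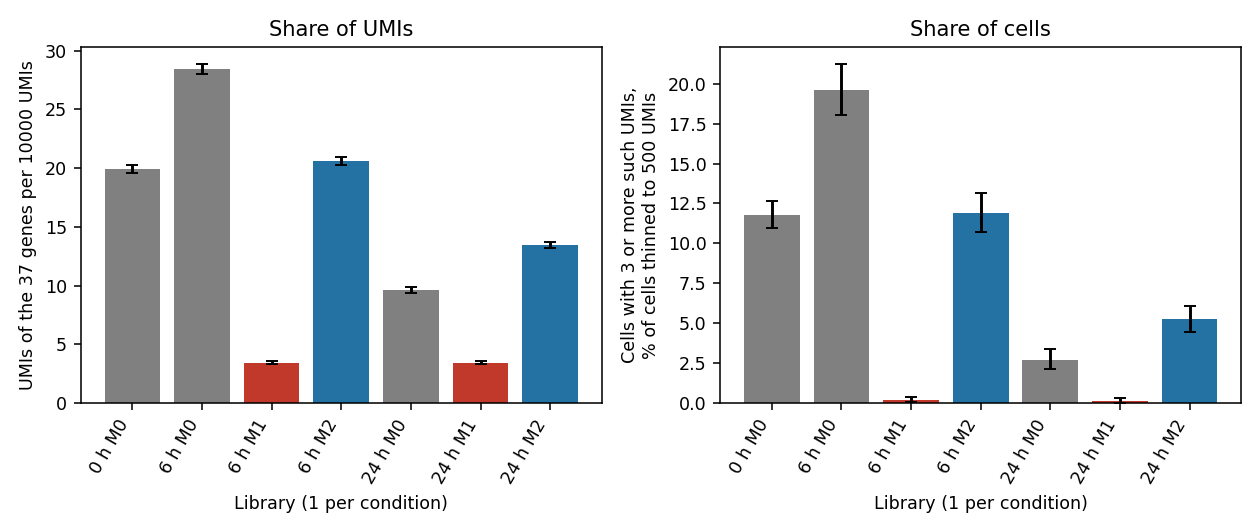
Member UMIs per 10000 UMIs with exact Poisson 95% intervals, and the percent of cells with 3 or more member UMIs after thinning to 500 UMIs with exact binomial 95% intervals, for the 7 single-cell libraries (1 per condition). Both M1 libraries lie lowest, at 3.45 and 3.42 per 10000 UMIs, and 6 h M0 highest at 28.4.

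Chromatin accessibility was measured at the members' promoters before M1 cytokines, at 24 h and after washout. The ATAC-seq counts covered 150203 sites, with 1730488 to 9354620 counts per library, for 24 h M1 and 0 h M0 cells and for cells washed out for 72 h (72 h M1→M0), 3 libraries each, so that counting error was largest in replicate 3 of 24 h M1. All 37 members had a site within 500 bp of an annotated start, 39 sites in all, since Mcm5 and Pole had 2 each. At 24 h M1, 4 member sites were less accessible than in 0 h M0 and 1 was more accessible (edgeR's quasi-likelihood test, adjusted p below 0.05), against 18.7% and 8.02% of 14820 promoter sites. The members' median difference was 0.07, beside -0.05 over all promoter sites.

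The 4 less accessible sites, a share of the member sites below that of all promoter sites, were those of Tk1, Tyms, Dut and Rrm2. These are nucleotide supply genes, as is Rrm1, whose site was not called (0.32, edgeR adjusted p = 0.0605). Whether the role of a gene went with the change of its site was not tested. The Tk1 site (mm10, chr11:117825805-117826049), 43 bp from the start, had 4.72, 4.96 and 4.42 CPM (counts scaled to the library total) in 0 h M0 and 2.51, 0.522 and 1.16 CPM in 24 h M1, a log2 difference of -1.99 (edgeR adjusted p = 0.000416). The Tyms site (chr5:30072512-30073927) over the start had 12.3, 17.1 and 12.3 CPM and then 7.54, 8.87 and 5.21 CPM (-0.77, edgeR adjusted p = 0.00108). At both sites the groups did not overlap. The Dut site (chr2:125246897-125248390) changed by -0.50 (edgeR adjusted p = 0.00218) and the Rrm2 site (chr12:24707831-24709055) by -0.33 (edgeR adjusted p = 0.0488). Leaving out 1 replicate gave 1 to 3 less accessible member sites, the count of 1 being without replicate 2. The Rfc5 site rose by 0.38 (edgeR adjusted p = 0.0253).

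At 72 h M1→M0, 2 member sites were more accessible than in 24 h M1 and 9 were less accessible, against 11.3% and 16.4% of promoter sites. The 2 were Tyms, at 13.3, 12.4 and 12.1 CPM (0.67, edgeR adjusted p = 0.0071), and Dut, at 49.1, 54.4 and 56.0 CPM from 39.6, 36.5 and 38.8 CPM (0.48, edgeR adjusted p = 0.00463). Leaving out any 1 replicate gave 1 more accessible member site. The Tk1 site stayed low at 2.05, 1.84 and 1.43 CPM, below all 0 h M0 libraries (-1.37, edgeR adjusted p = 0.00361), while Tk1 transcripts were at 15.0, 58.8 and 55.3 FPKM.

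The Pola2 and Mcm7 sites had the largest decreases of the 9, Mcm7 only just ahead of Rpa2, and were chosen after their values were seen. The Pola2 site (chr19:5963743-5964598) went from 7.22, 11.2 and 12.7 CPM in 24 h M1 to 5.91, 5.52 and 4.61 CPM in 72 h M1→M0 (-0.93, edgeR adjusted p = 0.000942). The Mcm7 site (chr5:138170855-138172550) went from 63.1, 53.6 and 64.2 CPM to 34.9, 39.5 and 36.4 CPM (-0.68, edgeR adjusted p = 4.64e-05). Neither site had overlapping libraries, and the transcripts of both genes were among the 33 that rose between the same conditions. The other 7 sites were those of Cdc6, Chaf1b, E2f1, Gins2, Pold1, Rpa2 and Slbp, and the transcripts of all of these but Cdc6, which was not in the bulk matrix, rose as well. Since 33 of 35 members rose, the same would hold for almost any set of member sites. Against 0 h M0, 8 member sites were less accessible at 72 h M1→M0 by edgeR (17.7% of promoter sites), those of Mcm7, Pola2, Pold1, Rfc2, Rpa2, Slbp, Tk1 and Uhrf1, and 0 more accessible (4.40%), also at an unadjusted p below 0.05.

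**Figure D5:**
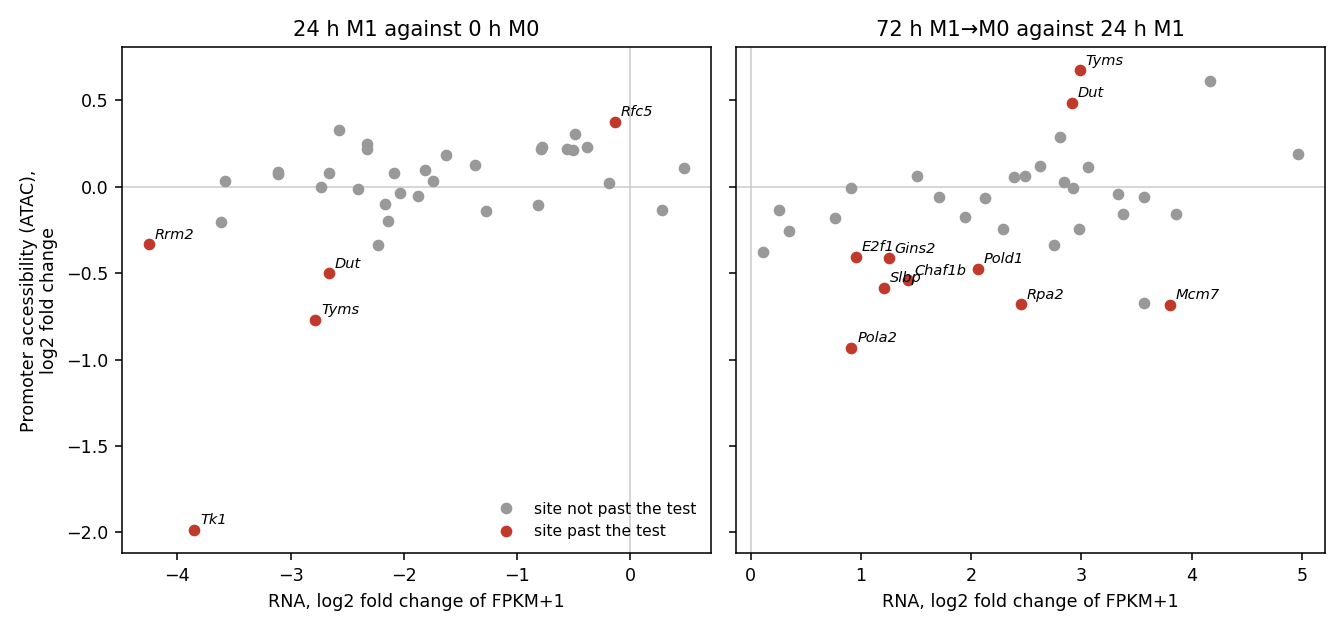
Difference in RNA (log2(FPKM + 1), horizontal) against difference in promoter accessibility (log2, vertical) for sites of the 35 members with both values, in 24 h M1 against 0 h M0 (left) and in 72 h M1→M0 against 24 h M1 (right), red where the site passed the edgeR test. Points spread along the RNA axis and most lie near 0 on the ATAC axis. Tk1, whose site had few reads in 24 h M1, lies at -3.85 in RNA and -1.99 in ATAC in the first comparison.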

How the data were processed

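The series held 161 samples: bulk RNA-seq in 48 conditions, 9 ATAC-seq libraries and 7 single-cell libraries. Bulk reads were aligned by the authors to mm10 with TopHat2 2.0.14, normalized with Cuffnorm 2.2.2 and deposited as log10(FPKM + 1) values of genes reaching 10 FPKM in at least 1 library. That file holds no counts, so the depth behind each FPKM value is unknown and no counting interval could be given. For ATAC-seq the authors deposited raw read counts over peaks called with MACS2 2.1.0 on all libraries together, after duplicate removal with SAMtools 1.9 and counting with bedtools 2.28.0. For single cells the authors deposited UMI counts from Cell Ranger. Tool names and versions are those of the submitters' processing notes.

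Members, roles and comparison lists were chosen with earlier results of these data known. The named genes were all 37 members, the 4 genes of each other list with the largest change at 24 h M1 and those called against it, and the 10 genes most correlated with the members.

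Deposited values were put on the log2(FPKM + 1) scale and tested with limma 3.58.1 (R 4.3.3), two-sided, with 1 mean per condition, all bulk libraries in 1 fit (97 residual degrees of freedom), a mean-variance trend and Benjamini-Hochberg adjustment over 8307 genes at 0.05. Methods in the study used Cuffdiff, which needs reads. ATAC-seq sites with more than 10 counts in at least 1 library entered edgeR 4.0.16's two-sided quasi-likelihood test with TMM scaling, with adjustment over all 137586 sites tested, and DESeq2 1.42.0 as the alternative. Member sites lay within 500 bp of a GENCODE protein-coding start, whose chromosome names and lengths fitted the counts. Single-cell values are sums per library, with 1 library per condition and no test, with no doublet removal and no further filter on the deposited barcodes. Scripts were tested on simulated data. Alternatives were a pseudocount of 0.1 FPKM, a filter on low values, quantile normalization, a shift of each library, fits of only the libraries compared, a replicate block and leaving out each replicate. The counts for 72 h M1→M0 above 96 h M0 and above 72 h M2→M0, 72 h M1→M2 below 72 h M1→M0, 96 h M2 below 96 h M0 and 96 h M0 below 48 h M0 were added after the data were seen.

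Groups and replicate numbers came from the labels. Same-numbered libraries deviated together (correlation over 0.1 in every pair) in 14 of 19 comparisons checked. The reported bulk tests nevertheless left the replicate number out in every comparison, and the replicate block was run as an alternative only. In ATAC-seq the correlations ran from -0.0539 to 0.0129.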

Additional observations from a re-analysis of the deposited data

Results flagged for a closer look

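In the 4 libraries of 4 h M2→M1, 5 members had 1 library far from the rest by Dixon's ratio of the gap to the range. Cdc45 (0.941), Pola2 (0.938) and Rrm1 (0.834) had replicate 3 high, Pold1 (0.877) had replicate 2 low and Fen1 (0.904) had replicate 4 low. These were 5 of 70 groups of 4 tested, and chance alone marks about 1 in 20.

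The change under M1 cytokines differed between cells that came from IL-4 and cells that came from M0 for 2 members, by limma's test of the difference. Rfc5 differed by -0.40 on the log2(FPKM + 1) scale at 4 h (limma adjusted p = 0.0386) and by -0.62 at 24 h (limma adjusted p = 0.000368), from the higher Rfc5 level of 24 h M2. The 4 h call was lost with each library shifted to 1 median (limma adjusted p = 0.162) and the 24 h call was kept in every alternative. Rfc3 differed by 0.89 at 24 h (limma adjusted p = 0.0132), a call that replicates 2 and 3 each decided.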

How the results depend on the processing

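Of the bulk RNA values recomputed under each alternative, 192 stayed within 1.5 times the reported count and 23 moved beyond it. For ATAC-seq 10 stayed and 4 moved. The counts of members that fell under M1 cytokines, and of those higher at 72 h after washout than in 24 h M1 or 96 h M1, stayed within 1.5 times in every alternative run.

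Leaving out 1 replicate gave 1 to 8 members higher at 6 h M1→M0 than in 24 h M1, 4 to 10 at 12 h and 10 to 23 at 24 h, 1 to 2 higher in 24 h M1→M2 than in 24 h M1→M0, 1 to 5 whose fall at 24 h differed between M2→M1 and M1, and 0 to 22 lower in 96 h M0 than in 0 h M0. For results added after the data were seen, it gave 14 to 34 higher in 72 h M1→M0 than in 96 h M0, 19 to 33 lower in 72 h M1→M2 than in 72 h M1→M0, 7 to 28 lower in 96 h M2 than in 96 h M0, and 0 to 27 lower in 96 h M0 than in 48 h M0. It gave 1 to 3 less accessible member sites at 24 h M1 and 1 more accessible site at 72 h M1→M0. Fitting only the libraries compared gave 12 members higher at 24 h M1→M0, 1 higher at 24 h M1→M2, 1 differing fall and 5 lower at 72 h M1→M2, and a pseudocount of 0.1 FPKM gave 4 lower in 96 h M0. The cause of these shifts was not tested.

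With a replicate block, 20 members were lower in 96 h M0 than in 0 h M0, against 9 without it, in a comparison whose numbers did not pair the libraries. The block moved no other count beyond 1.5 times.

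Thinning every cell to 500 UMIs changed the members' share per 10000 UMIs to 18.8 at 0 h, 27.9 at 6 h and 7.53 at 24 h of M0, 3.21 at 6 h of M1 and 12.5 at 24 h of M2. The depth of the bulk libraries is unknown, which limits what can be said of genes near 0 FPKM.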
